A study of Mus musculus with 16 samples.

Results

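The 8 enzymes of the pentose phosphate pathway, G6pdx, H6pd, Pgls, Pgd, Rpia, Rpe, Tkt and Taldo1, were followed in brown adipose tissue (BAT) and gonadal white adipose tissue (gWAT). They were chosen by gene symbol, with earlier results of these data known, and are 8 of the 22911 gene symbols that could be given to probes of the array. All 8 had a probe, and their 12 probes were well above background on all 16 arrays. Each gene was described by its brightest probe. The arrays came from male mice of the strain C57BL/6NCrSlc, with 4 arrays for each tissue and genotype. Adipo-Pgam1 KO mice (Adipoq-Cre+ and Pgam1 flox/flox) were compared with littermate controls that carry the same floxed alleles without Cre (Adipoq-Cre- and Pgam1 flox/flox). Cre was made under the adiponectin promoter, which is active in adipocytes. Which other cells of the fat pad keep Pgam1 cannot be read from these arrays of whole tissue. The mice were 16 weeks old, except replicate 4 of the Adipo-Pgam1 KO group in both tissues, which the labels give as 14 weeks.

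The pentose phosphate pathway takes glucose 6-phosphate out of glycolysis. Its oxidative branch (G6pdx, Pgls and Pgd, with H6pd as the form inside the endoplasmic reticulum) makes NADPH, the reducing power for fatty acid synthesis and for glutathione. Its non-oxidative branch (Rpia, Rpe, Tkt and Taldo1) makes ribose 5-phosphate for nucleotides and returns carbon to glycolysis as fructose 6-phosphate and glyceraldehyde 3-phosphate. Adipose tissue that makes fat from glucose is known for high activity of the oxidative branch.

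Values are log2 signals relative to the 75th percentile of the same array. A difference of 1 is a 2-fold change, and levels of different probes cannot be compared with each other. A gene counted as past the threshold at an adjusted p under 0.05 in limma, adjusted over all genes tested. The labels do not say that each array holds RNA of a separate mouse, so p-values measure the spread between arrays. The 75th percentile was 401.3 to 451.3 in the control BAT arrays and 570.3 to 916.2 in the other 12. In BAT, Pgam1 was lower in Adipo-Pgam1 KO mice (log2 difference -1.74, standard error 0.11, limma adjusted p = 1.11e-05). In gWAT, the KO-labelled arrays had more Pgam1 signal than controls (0.95, standard error 0.19, limma adjusted p = 0.0140), against their label, and each direction in gWAT rests on that label. Whether the Pgam1 probe lies in the deleted part of the gene was not checked here. The adipocyte markers were well above background on all 16 arrays. Ucp1, the uncoupling protein of brown fat, was well above background on all 8 BAT arrays, on none of the gWAT control arrays and on 3 of the 4 KO-labelled gWAT arrays. Replicates 1 and 3 of BAT from Adipo-Pgam1 KO mice stood apart in skeletal muscle markers. The summed level of a marker list is the log2 of the summed signals of its genes, in which the brightest genes weigh most. For muscle it was 6.90 and 4.43 in these replicates and 0.77 and 1.18 in the other 2 arrays of that group. Control BAT arrays reached at most 0.41.

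The oxidative branch makes NADPH at G6pdx and again at Pgd, and these enzymes moved in opposite directions in BAT, so their promoters are shown. The sequences are the 250 bases before the RefSeq start of each gene in GRCm38.p6, on the minus strand, at chrX:74428881-74429130 for G6pdx and at chr4:149166706-149166955 for Pgd. Capitals mark a match to TGACNNNGC, the core of the antioxidant response element bound by Nrf2 (Nfe2l2), here read on the strand opposite to the gene.

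G6pdx: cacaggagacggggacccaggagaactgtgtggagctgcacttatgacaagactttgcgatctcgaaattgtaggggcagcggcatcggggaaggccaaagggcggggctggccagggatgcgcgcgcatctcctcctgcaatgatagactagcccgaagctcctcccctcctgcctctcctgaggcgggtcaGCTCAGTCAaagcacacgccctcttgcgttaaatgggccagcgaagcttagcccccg

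Pgd: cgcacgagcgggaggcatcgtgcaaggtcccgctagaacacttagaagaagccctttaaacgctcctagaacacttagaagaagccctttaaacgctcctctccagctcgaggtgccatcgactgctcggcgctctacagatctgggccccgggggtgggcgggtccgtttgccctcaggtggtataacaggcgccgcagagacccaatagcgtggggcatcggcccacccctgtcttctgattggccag

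Both strands of windows of 300 bases around 9 RefSeq starts of the 8 genes were searched (250 bases before the start and 50 after it). The only H6pd window, chr4:150003187-150003486 on the minus strand, lies inside the gene, which reaches to 150009023. A start at that end of H6pd was not searched. TGACNNNGC was found in 2 genes, in the G6pdx window 57 bases before the start and in a window of a second, more downstream start of Pgd. It was in 12.39% of all 32851 promoter windows. CACGTG, the E-box read by factors such as the carbohydrate response element binding protein (Mlxipl) and its partner Mlx, was in none of the 9 windows and in 7.15% of all windows. A match describes these letters and is not a bound site.

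In BAT, Pgd rose and G6pdx, H6pd, Pgls, Tkt and Taldo1 fell in Adipo-Pgam1 KO mice compared with littermate controls. The fall was deepest for H6pd, which was 3.22-fold lower, and Pgd was 2.0-fold higher. Thus 6 of the 8 enzymes (75%) passed the threshold, against 61.4% of the 14267 genes tested, of which 27.5% were higher and 33.9% lower. That share is near the background and is not by itself a result about the pathway. The median difference was -0.57 for the members and -0.08 for all genes tested. The groups did not overlap for 7 of the 8, against 57.1% of all genes tested. Among these 7, the groups of Rpia all but touched.

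H6pd is the glucose 6-phosphate dehydrogenase of the endoplasmic reticulum, which supplies NADPH inside that compartment. Its log2 signal in BAT was 5.07, 5.22, 5.22 and 5.39 in controls and 3.90, 3.05, 3.30 and 3.90 in Adipo-Pgam1 KO mice. Every control array was more than 1 log2 unit above every Adipo-Pgam1 KO array. The difference was -1.69 (standard error 0.20, limma adjusted p = 1.44e-04). G6pdx, the cytosolic enzyme that commits glucose 6-phosphate to the pathway, stood at 6.43, 6.41, 6.67 and 6.71 in controls and at 6.28, 5.67, 5.52 and 5.84 in Adipo-Pgam1 KO mice. The groups lay apart, with replicate 1 of Adipo-Pgam1 KO mice nearest to the controls. G6pdx fell by 0.73 (standard error 0.17, limma adjusted p = 0.00537). Pgls, which opens the lactone made by G6pdx, fell from between 7.62 and 8.06 to between 7.10 and 7.48, with a difference of -0.64 (standard error 0.13, limma adjusted p = 0.00287). Its second, dimmer probe differed by -0.91.

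Pgd, which makes NADPH and ribulose 5-phosphate in the last oxidative step, went the other way. Its log2 signal was 5.18, 5.30, 5.76 and 5.91 in controls and 6.92, 6.40, 6.31 and 6.52 in Adipo-Pgam1 KO mice. All 4 arrays of the Adipo-Pgam1 KO mice were above all 4 controls. Pgd rose by 1.0 (standard error 0.20, limma adjusted p = 0.00234). Against the single control on the slide of all Adipo-Pgam1 KO BAT arrays, Pgd was at 0.63 (limma with the slide as a block, adjusted p = 0.104) and Pgls at -0.37 (adjusted p = 0.122), neither past the threshold, while G6pdx, H6pd, Rpe, Tkt and Taldo1 passed it there, all in the lower direction.

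In the non-oxidative branch, transketolase (Tkt) stood at 9.37, 9.19, 9.72 and 9.65 in controls and at 8.80, 8.45, 8.23 and 8.97 in Adipo-Pgam1 KO mice. Tkt fell by 0.87 (standard error 0.19, limma adjusted p = 0.00373), and the groups did not overlap. Taldo1, the transaldolase that works beside Tkt, was 8.79 to 9.27 in controls against 8.38 to 8.76 in Adipo-Pgam1 KO mice, so that its groups lay side by side without overlap. Its difference was -0.50 (standard error 0.14, limma adjusted p = 0.0148), and -0.49 with its second probe. Without both muscle-marked arrays, Taldo1 was at -0.45 and no longer past the threshold (limma adjusted p = 0.0958). In that same fit, G6pdx, H6pd, Pgls, Pgd and Tkt stayed past it.

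Rpia and Rpe, the isomerase and epimerase that act on ribulose 5-phosphate, did not pass the threshold in BAT with their brightest probes. Rpia was 0.67 to 0.91 in controls and 0.91 to 1.37 in Adipo-Pgam1 KO mice. The highest control (0.9092) and the lowest Adipo-Pgam1 KO array (0.9099) all but touched. The Rpia difference was 0.30 (95% interval 0.03 to 0.57, limma adjusted p = 0.0543). Without both muscle-marked arrays it was 0.43 (limma adjusted p = 0.0375), and without replicate 3 of Adipo-Pgam1 KO mice alone 0.37 (limma adjusted p = 0.0318). The brightest Rpe probe differed by -0.17 (95% interval -0.60 to 0.25, limma adjusted p = 0.446). It passed with the slide as a block (-0.74, limma adjusted p = 0.00832) and with Actb and Rplp0 as the scale (-0.76, limma adjusted p = 0.00895). The slide block set the Adipo-Pgam1 KO arrays against control replicate 4 alone, the highest control at 2.53. Without that control the difference was 0.016 (limma adjusted p = 0.911). The control spread of this probe, 1.57 to 2.53, was wider than that of the Adipo-Pgam1 KO arrays, 1.71 to 1.85. The probes of Rpe disagreed, since its dimmer ones differed by -0.69 and -0.93, and the mean of its probes by -0.60 (limma adjusted p = 8.25e-04).

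Other cell types moved with these differences in BAT. All 8 adipocyte markers were lower in Adipo-Pgam1 KO mice and past the threshold. Their summed level went from between 11.48 and 11.72 to between 9.85 and 10.31. Of 10 macrophage markers, 9 were higher and past it, with a summed level of 4.79 to 5.42 in controls and 6.82 to 7.40 in Adipo-Pgam1 KO mice. All 5 fibroblast markers were higher and past it. Brown adipocyte markers had a summed level of 11.74 to 11.85 in controls and 10.22 to 10.88 in Adipo-Pgam1 KO mice. The part of these cell types in the enzyme differences was not tested. In bulk tissue fewer cells of a type and less RNA per cell cannot be told apart.

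**Figure D1:**
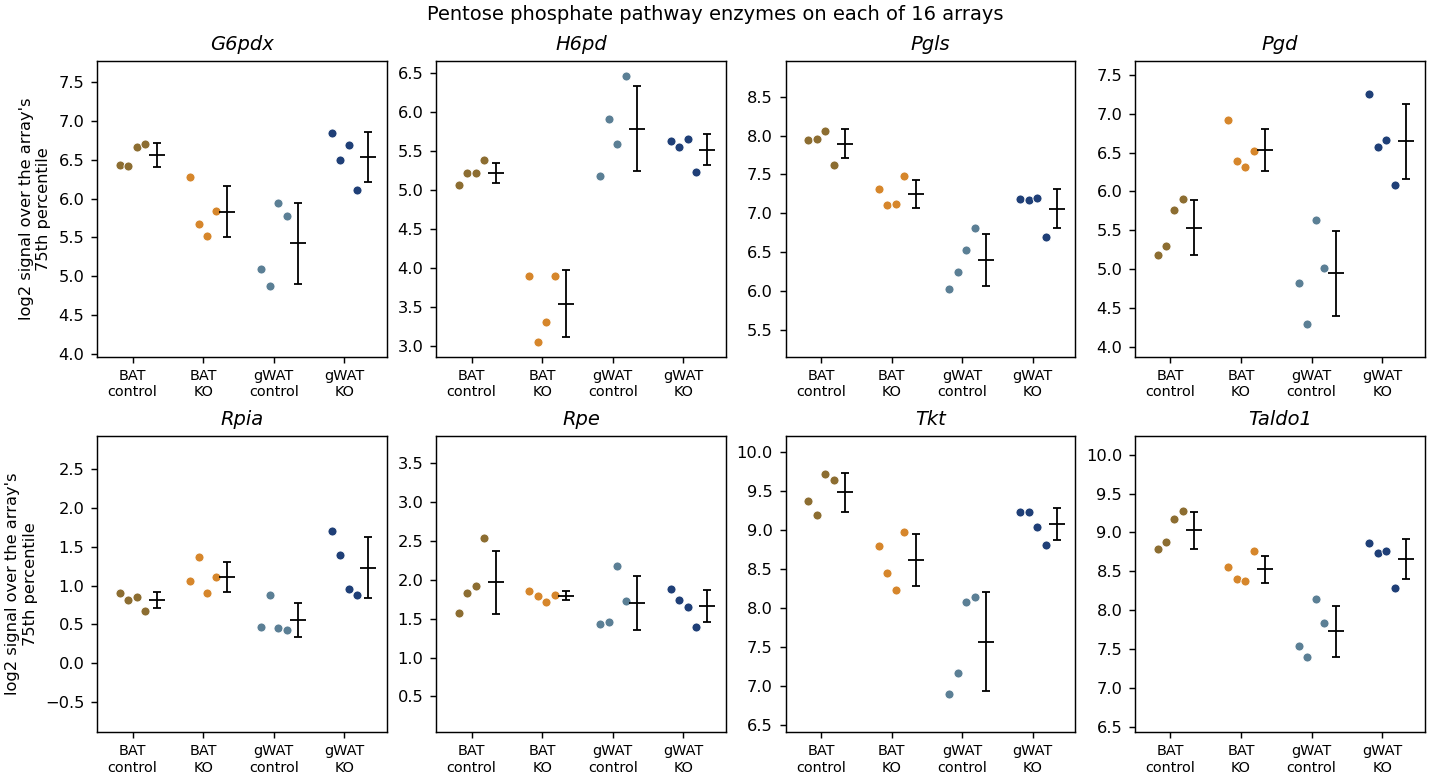
Log2 signal of each enzyme over the array's 75th percentile (vertical axis) on each of 16 arrays (points), by tissue and genotype. Black marks give the mean and SD of 4 arrays, and each panel spans the same range of log2 units. In BAT the Adipo-Pgam1 KO arrays of Pgd sit above the controls and those of H6pd sit at 3.05 to 3.90, below controls at 5.07 to 5.39.

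In gWAT, the KO-labelled arrays had more G6pdx, Pgd, Tkt and Taldo1 than the controls, and no enzyme passed the threshold in the lower direction. Pgd was 3.24-fold, Tkt 2.85-fold, G6pdx 2.16-fold and Taldo1 1.91-fold higher. These are 4 of 8 members, against 17.9% of the 14137 genes tested, of which 10% were higher and 7.86% lower. The median difference was 0.80 for the members and 0.05 for all genes tested. The groups did not overlap for 4 of the 8, against 24.2% of all genes tested.

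Pgd in gWAT was 4.83, 4.30, 5.63 and 5.02 in controls and 7.25, 6.58, 6.66 and 6.09 in the KO-labelled arrays. It rose by 1.70 (standard error 0.32, limma adjusted p = 0.0117). Tkt was 6.89, 7.16, 8.08 and 8.13 in controls and 9.24, 9.23, 9.03 and 8.81 in the labelled arrays. Control replicates 1 and 2 were about 1 log2 unit below replicates 3 and 4, yet all controls were below all labelled arrays. Tkt rose by 1.51 (standard error 0.29, limma adjusted p = 0.0132). G6pdx was 5.09, 4.88, 5.95 and 5.78 in controls and 6.85, 6.50, 6.68 and 6.11 in the labelled arrays. It showed the same low pair of controls, and rose by 1.11 (standard error 0.27, limma adjusted p = 0.0265). Taldo1 was 7.40 to 8.14 in controls and 8.28 to 8.87 in the labelled arrays. It rose by 0.93 (standard error 0.20, limma adjusted p = 0.0176), and its second probe differed by 1.32.

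The other 4 enzymes were not past the threshold in gWAT. Pgls differed by 0.66 (95% interval 0.21 to 1.11, limma adjusted p = 0.0517) and Rpia by 0.68 (0.20 to 1.15, limma adjusted p = 0.0551). H6pd differed by -0.27 (95% interval -0.86 to 0.32, limma adjusted p = 0.499), with controls spread from 5.18 to 6.46 around labelled arrays at 5.23 to 5.65. Rpe differed by -0.04 (95% interval -0.48 to 0.40, limma adjusted p = 0.916).

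Several of these calls changed when 1 array was left out. G6pdx was at 0.93 to 1.12 and not past the threshold (limma adjusted p = 0.0575 to 0.0772) without control replicate 1 or 2 or without labelled replicate 1, 2 or 3. Taldo1 was at 0.86 to 0.91 (limma adjusted p = 0.0503 to 0.0555) without labelled replicate 1, 2 or 3. Pgls passed without control replicate 4 (0.79, limma adjusted p = 0.0339), and both Pgls (0.78, limma adjusted p = 0.0280) and Rpia (0.79, limma adjusted p = 0.0336) passed without labelled replicate 4. That array, from a mouse of 14 weeks, had the highest summed macrophage level, 8.12 against 6.33 to 7.06 in the other 3 labelled arrays and 6.08 to 6.56 in controls. Of the 10 macrophage markers, 3 were higher and past the threshold in gWAT, and of the 8 adipocyte markers 1 was lower. Brown adipocyte markers had a summed level of 4.45 to 5.77 in controls and 6.92 to 8.29 in the labelled arrays. Skeletal muscle markers also lay apart, with a summed level of 2.05 to 4.66 in controls and 4.93 to 5.87 in the labelled arrays, and 6 to 9 of their 10 genes were well above background in controls and 5 to 7 in the labelled arrays. The part of these cell types was not tested. The labelled arrays all lay on a slide with control replicate 4 alone. Against that slide's control the differences were 1.62 for Pgd, 0.94 for Tkt, 0.82 for Taldo1 and 0.76 for G6pdx. In limma with the slide as a block, 0 of 8 enzymes passed the threshold (adjusted p = 0.172 to 0.399 for the 4 named). In that fit 4 of all 8 enzymes had an unadjusted p under 0.05, and G6pdx (standard error 0.42) was not among them. Past the threshold were 4 with the slide as a random block and 3 by the methods' t-test.

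**Figure D2:**
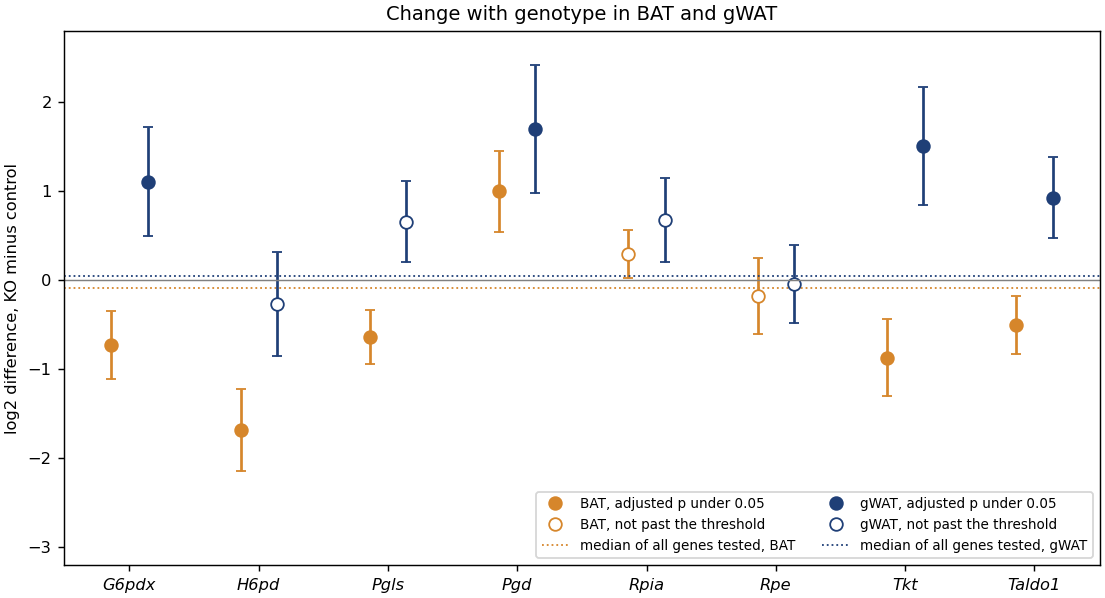
Log2 difference between genotypes (vertical axis) for each enzyme in BAT (orange) and gWAT (blue), with 95% intervals from limma. Filled points passed the threshold and dotted lines mark the median of all genes tested. Pgd lies above 0 in both tissues, at 1.0 and 1.70, whereas G6pdx, Tkt and Taldo1 lie below 0 in BAT and above it in gWAT.

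The difference between the tissues was tested as an interaction over all 16 arrays. The change was more positive in gWAT than in BAT for G6pdx, H6pd, Pgls, Tkt and Taldo1, which are 5 of 8 members. Of the 14807 genes tested, 48.3% passed, made up of 27.4% in this direction and 21.0% in the other. Tkt had an interaction of 2.38 (standard error 0.37, limma adjusted p = 1.60e-04) and G6pdx one of 1.84 (standard error 0.34, limma adjusted p = 5.35e-04). Taldo1 followed with 1.43 (standard error 0.25, limma adjusted p = 3.95e-04), H6pd with 1.42 (standard error 0.35, limma adjusted p = 0.00384) and Pgls with 1.30 (standard error 0.24, limma adjusted p = 6.49e-04). The interaction of H6pd came from a fall in BAT beside a gWAT difference that was not past the threshold, while G6pdx, Tkt and Taldo1 were past it in opposite directions. Pgd, which rose in both tissues, had an interaction of 0.70 (95% interval -0.15 to 1.55, limma adjusted p = 0.163). With the slide as a block, H6pd (0.90, limma adjusted p = 0.177) and Pgls (0.62, limma adjusted p = 0.185) were no longer past the threshold, and G6pdx, Tkt and Taldo1 were.

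The levels in the 4 groups followed different orders. In controls, Tkt was 3.77-fold, Pgls 2.81-fold, Taldo1 2.46-fold and G6pdx 2.19-fold higher in BAT than in gWAT, without overlap between the tissues. These 4 of 8 passed the threshold (limma adjusted p = 2.42e-06 to 6.48e-04), against 67.7% of the 14291 genes tested, a share above that of the members. Of these genes 37.0% were higher and 30.8% lower in BAT, and 60.8% had tissues that did not overlap. H6pd differed by -0.56 in the same comparison (limma adjusted p = 0.0527) and Pgd by 0.59 (limma adjusted p = 0.0748), each with overlap. Under quantile normalization Taldo1 was at 0.28 and not past the threshold (limma adjusted p = 0.0921). H6pd was then lower in BAT and past it (-1.03, limma adjusted p = 5.11e-04). It also passed with spike-in scaling (-0.80, limma adjusted p = 0.00308) and normexp background correction (-0.64, limma adjusted p = 0.0234). In Adipo-Pgam1 KO mice and the gWAT arrays with that label, G6pdx (-0.71, limma adjusted p = 0.0244) and H6pd (-1.98, limma adjusted p = 1.70e-05) were lower in BAT and no enzyme was higher past the threshold. That is 2 of 8, against 46.3% of the 14437 genes tested, of which 23.4% were higher and 22.9% lower in BAT. Those groups lay on separate slides. With the slide as a block 0 of 8 passed in limma (G6pdx -0.24, adjusted p = 0.770, and H6pd -1.08, adjusted p = 0.0944), and 2 at an unadjusted p under 0.05. By the methods' t-test, 2 had an unadjusted p under 0.05 and 1 passed after adjustment. G6pdx was also not past the threshold without BAT replicate 2 or 3 or without gWAT replicate 1 or 3 of these groups, at -0.66 to -0.60.

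By mean level, Tkt, Taldo1 and G6pdx shared the order control BAT, gWAT labelled Adipo-Pgam1 KO, BAT of Adipo-Pgam1 KO mice and control gWAT. Neighbours in this order overlapped, except that for Tkt and Taldo1 control gWAT lay below all other groups. H6pd was lowest in BAT of Adipo-Pgam1 KO mice, at 3.54 ± 0.43 (SD, n = 4), below every array of the other 3 groups, which overlapped. Pgd was highest in gWAT labelled Adipo-Pgam1 KO (6.64 ± 0.48, SD, n = 4) and next in the Adipo-Pgam1 KO BAT arrays (6.54 ± 0.27, SD, n = 4), which overlapped, and both lay above control BAT (5.54 ± 0.35, SD, n = 4). Pgls was highest in control BAT, at 7.89 ± 0.19 (SD, n = 4), apart from the next group. The groups of Rpe overlapped throughout this order.

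The signal of one enzyme relative to another on the same array does not depend on a factor that scales the whole array. Only its change between groups can be read, since the probes differ in brightness. Pgd relative to G6pdx was -1.02 ± 0.20 (SD, n = 4) in control BAT and 0.71 ± 0.06 (SD, n = 4) in BAT of Adipo-Pgam1 KO mice. The log2 ratio of these NADPH-making steps thus shifted by 1.72 in BAT, and by 0.59 in gWAT, from -0.48 ± 0.23 to 0.11 ± 0.20 (SD, n = 4 each). In both tissues the genotypes did not overlap. H6pd relative to G6pdx shifted by -0.96 in BAT and by -1.38 in gWAT, also without overlap. Tkt relative to Taldo1 shifted by -0.37 in BAT, where every array of the Adipo-Pgam1 KO mice was below every control, and by 0.58 in gWAT, where the groups overlapped. Tkt relative to G6pdx moved by -0.15 in BAT, within the range of the arrays. These ratios are given as a description, without a test.

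**Figure D3:**
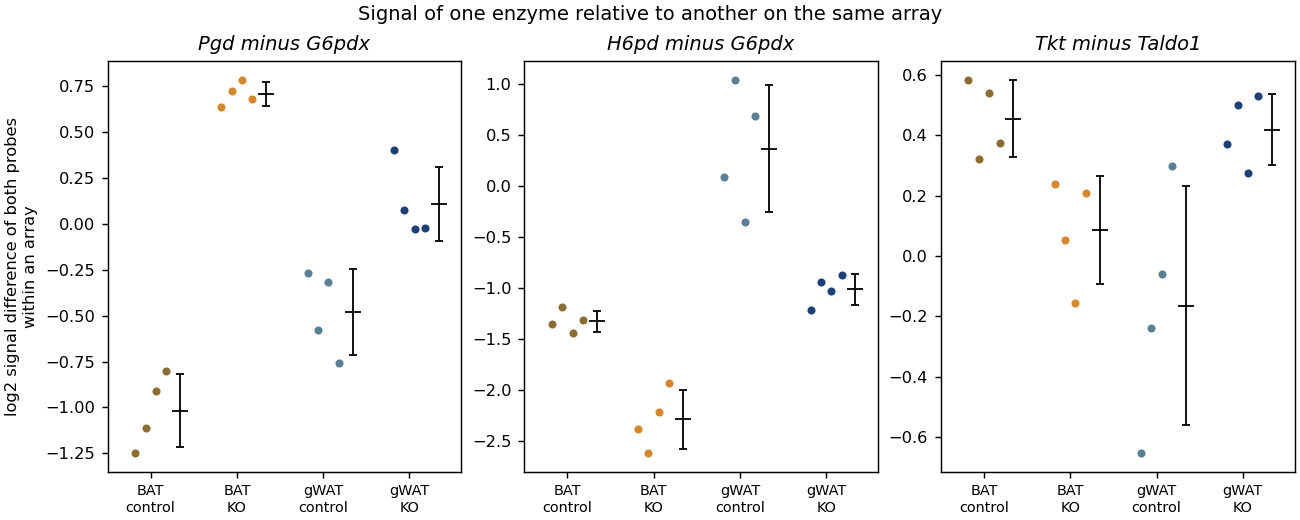
Log2 signal difference between a pair of enzyme probes on the same array (vertical axis), for each of 16 arrays (points) by tissue and genotype, with the mean and SD of 4 arrays. Pgd relative to G6pdx goes from -1.02 to 0.71 in BAT and from -0.48 to 0.11 in gWAT, and H6pd relative to G6pdx goes down in both tissues.

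How arrays were scaled moved the BAT differences together with those of all genes. The median of all genes tested in BAT was -0.08 with the 75th percentile, 0.46 with the spike-in probes and -0.67 with Actb and Rplp0, both of which were themselves higher in Adipo-Pgam1 KO BAT under the 75th percentile. Of the genes past the threshold, 44.8% were higher with the 75th percentile, 79.4% with spike-ins and 17.7% with Actb and Rplp0. Over 7 scalings H6pd stayed below the median of all genes, by -1.61 to -1.45, and Pgd stayed above it, by 1.08 to 1.15. Before that median was taken off, Pgd was at 0.41 with Actb and Rplp0 and not past the threshold. G6pdx lay at -0.64 to -0.46 and Pgls at -0.56 to -0.23 relative to that median. In contrast, Tkt lay at -0.79 to -0.06, and Taldo1 at -0.42 to 0.22 with a change of sign under quantile normalization. Under quantile normalization, which reshapes bright and dim signals differently, Tkt in BAT was at -0.04 (limma adjusted p = 0.863) and Taldo1 at 0.23 (limma adjusted p = 0.131). Under quantile and under spike-in scaling, H6pd, Pgd and Rpia were the 3 enzymes past the threshold in BAT. In gWAT, G6pdx, Pgd, Tkt and Taldo1 were higher and past the threshold under all 7 scalings, although spike-in scaling moved the median of all genes from 0.05 to 0.48 and the share of higher calls from 56.0% to 95.2%, and centring on the median moved them to 0.17 and 71.1%.

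**Figure D4:**
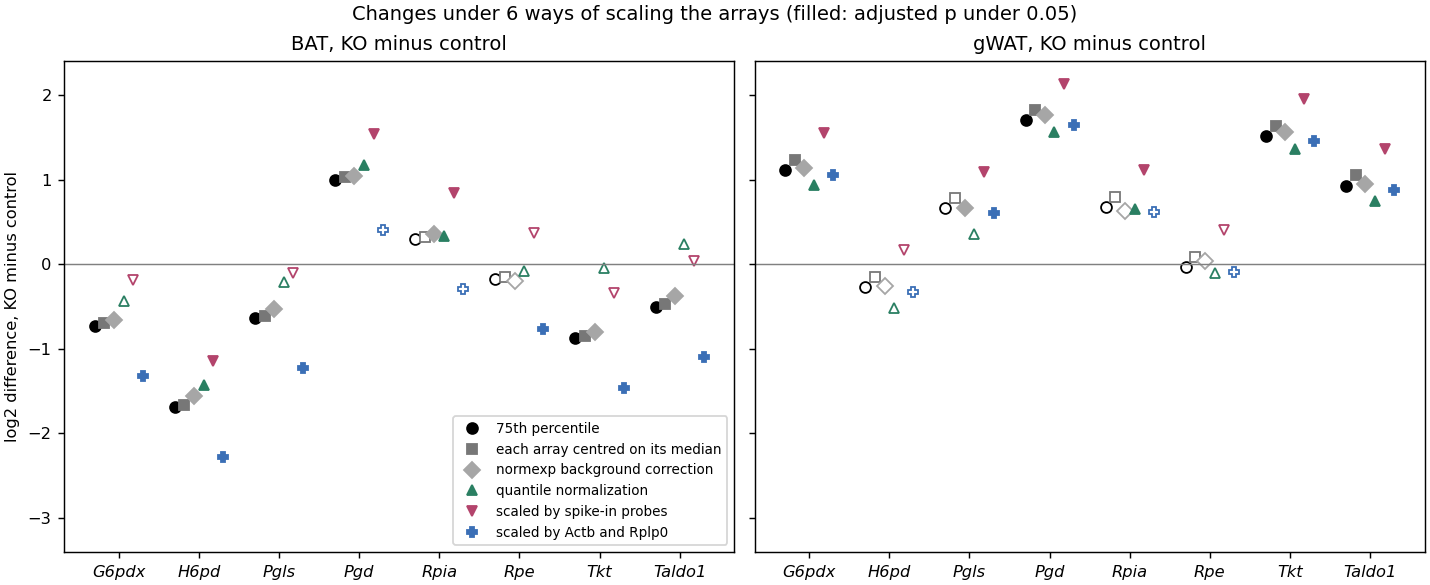
Log2 difference between genotypes (vertical axis) for each enzyme under 6 ways of scaling the arrays (symbols), in BAT (left) and gWAT (right), filled where the adjusted p was under 0.05. The deposited normalized table, the seventh scaling, lies close to the 75th percentile and is not drawn. In BAT, H6pd is below 0 and Pgd above 0 under all 6, whereas Taldo1 runs from -1.09 to 0.23.

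Genes that feed, share or regulate the pathway were taken from 5 lists and compared in the same fits. The median difference in BAT was 0.0031 for relatives and substrate-sharing enzymes and -0.86 for the listed genes of the endoplasmic reticulum. It was -0.60 for other NADPH sources, -0.16 for NADPH users and 0.29 for regulators, beside -0.08 for all genes tested. In gWAT these medians were 0.24, 0.07, 0.25, 0.61 and 0.16, beside 0.05 for all genes tested. Of 14 relatives and substrate-sharing enzymes, 11 were tested, and Tktl1, Tktl2 and Prps1l1 were not well above background on any array. In BAT, 2 were higher and 3 lower past the threshold, against 27.5% and 33.9% of all genes tested. Prps2, which turns ribose 5-phosphate into the nucleotide precursor PRPP, rose by 2.06 (standard error 0.15, limma adjusted p = 1.45e-05) and the phosphopentomutase Pgm2 by 0.68. The sedoheptulose kinase Shpk fell by 0.95 and the ribokinase Rbks by 0.81. In gWAT, 3 were higher and 1 lower, against 10% and 7.86% of all genes tested. Gpi1, which interconverts glucose 6-phosphate and fructose 6-phosphate, rose by 1.69 (standard error 0.19, limma adjusted p = 0.00198) and Tigar, a fructose bisphosphatase that favours the pathway, by 1.09. Prps1 fell by 0.88. G6pd2, a near-identical copy of G6pdx without introns, differed by 0.0031 in BAT and rose by 0.92 in gWAT (standard error 0.21, limma adjusted p = 0.0220), and whether its probe and that of G6pdx take signal from each other was not tested.

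H6pd was set beside a list of other proteins of the endoplasmic reticulum, which does not make each a partner of H6pd. Of 4 tested, 3 were lower past the threshold in BAT, where 33.9% of all genes tested were, and a count of so few genes is read no further. Hsd11b1, which uses the NADPH of H6pd to make active glucocorticoid, fell by 2.97 (standard error 0.28, limma adjusted p = 4.89e-05), and Por, the reductase that passes electrons to cytochromes P450, fell by 1.29 (standard error 0.12, limma adjusted p = 4.71e-05). In gWAT, Hsd11b1 rose by 1.16 (standard error 0.32, limma adjusted p = 0.0409) and Por fell by 0.67 (standard error 0.17, limma adjusted p = 0.0279).

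Among other sources of NADPH, 9 of the 10 listed were tested, and Nnt had no named probe. In BAT, 1 was higher and 6 lower past the threshold, against 27.5% and 33.9% of all genes tested. Aldh1l2, the mitochondrial enzyme that makes NADPH from 10-formyltetrahydrofolate, was not well above background on any control array of either tissue. It was at least 35.9-fold higher in BAT of Adipo-Pgam1 KO mice and at least 4.11-fold higher in gWAT labelled Adipo-Pgam1 KO. These bounds take for each control array the higher of its lowest signal well above background and the probe's own. The limma adjusted p (1.92e-06 in BAT and 0.00135 in gWAT) rests on the dim control signals and does not test these bounds. Aldh1l2 entered both tests only through the arrays labelled Adipo-Pgam1 KO. Its cytosolic relative Aldh1l1 fell in both tissues, by 2.12 in BAT (standard error 0.19, limma adjusted p = 3.28e-05) and by 1.08 in gWAT (standard error 0.27, limma adjusted p = 0.0292). Mitochondrial malic enzyme Me3 fell by 1.68 in BAT. In gWAT, 2 were higher and 1 lower (10% and 7.86% of all genes tested), and the cytosolic malic enzyme Me1 rose by 1.84 (standard error 0.36, limma adjusted p = 0.0133).

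Of 15 enzymes that use NADPH, 5 were higher and 6 lower past the threshold in BAT, a total share near the 61.4% of all genes tested. Those that rose most were the quinone reductase Nqo1, by 3.0 (standard error 0.42, limma adjusted p = 3.27e-04, with 3 of the 4 control arrays well above background), and Cyba, a subunit of the phagocyte NADPH oxidase, by 2.18 (standard error 0.24, limma adjusted p = 9.28e-05). Nqo1, counted among these 5, entered the BAT test only through the Adipo-Pgam1 KO arrays. Hsd17b12 of fatty acid elongation fell by 1.22. In gWAT, 5 were higher and 1 lower, against 10% and 7.86% of all genes tested. Dhcr7 of sterol synthesis rose by 1.44 and Tecr of fatty acid elongation by 1.25.

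Of 10 regulators of the pathway, 5 were higher and 3 lower past the threshold in BAT, where 61.4% of all genes tested passed. Atf4, which drives the amino acid stress response, rose by 1.64 (standard error 0.18, limma adjusted p = 8.23e-05) and Trp53 by 1.09, whereas Mlx fell by 1.05 and Keap1, the inhibitor of Nrf2, by 0.65. In gWAT, 3 were higher and 0 lower, where 17.9% of all genes tested passed. The carbohydrate response factor Mlxipl rose by 1.53 (standard error 0.21, limma adjusted p = 0.00386) and its partner Mlx by 1.30 (standard error 0.23, limma adjusted p = 0.00923).

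**Figure D5:**
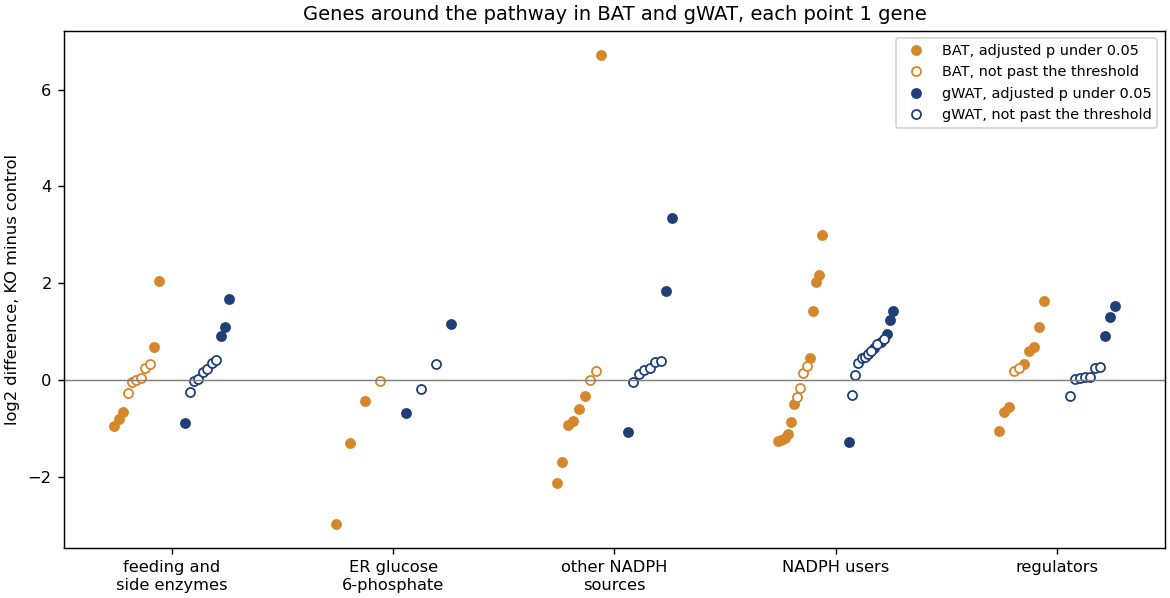
Log2 difference between genotypes (vertical axis) for the genes of 5 lists around the pathway, each point 1 gene, in BAT (orange) and gWAT (blue), filled where the adjusted p was under 0.05. The highest point of each tissue is Aldh1l2, whose control arrays were not well above background, so that its plotted height is no measured fold.

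The genes most like each enzyme over the 16 arrays were found among 12371 genes by the root mean square difference of their centred log2 signals. This is a description over arrays that share tissues and genotypes. For Tkt they were Mpc1, of the mitochondrial pyruvate carrier (0.20), Acaca, which makes malonyl-CoA for fatty acid synthesis (0.20), and the glycogen phosphorylase Pygl (0.24), where Tkt itself varied by 0.79 about its mean. For Pgd they were Sorl1 (0.31), Tnfrsf23 (0.35) and the sterol enzyme Lss (0.36), against a variation of 0.80. H6pd was closest to the alcohol dehydrogenase Adh1 (0.25), Ahcyl2 (0.31) and Fzd4 (0.31), against 0.93. G6pdx was closest to Snrpn (0.22), Gsta4 (0.23) and Mmab (0.23), against 0.57. Pgls was closest to Mtx1, Mrpl58 and Uxt (0.11 to 0.12, against 0.57) and Taldo1 to Cdk16, Vdac1 and Nubp2 (0.14 to 0.16, against 0.52). Rpia and Rpe varied little, by 0.34 and 0.27, and were closest to Rnf4, Eif4a1 and Usp10 and to Olfr1252, Txn1 and Rab10.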

How the data were processed

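Per the labels, total RNA from BAT or gWAT was labelled with Cy3 and hybridized to 1-colour Agilent arrays. The authors deposited scanner files of Agilent Feature Extraction 10.7.1.1 with background-subtracted signal intensity, and a table of intensities normalized in GeneSpring GX. The table differed from the scanner signal over the 75th percentile of its array by at most 0.00504 (median, log2) and was used as an alternative. Deposited marks of spots well above background served as a filter.

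Here, spots of 1 probe were averaged, divided by the array's 75th percentile and put on the log2 scale. RefSeq accessions gave a symbol of GRCm38.p6 to 32994 of 35886 RefSeq probes, and the brightest probe stood for a gene. The array design names mm9, so no probe coordinates are given. A gene entered a test when every array of one of the groups compared, or of more, carried that mark. Genotypes were compared within a tissue in limma 3.58.1 (R 4.3.3) with Benjamini-Hochberg adjustment, and tissues and interactions over all 16 arrays. The fit was tested on simulated data. The number of arrays limits the precision. Arrays lay on 3 slides: 3 BAT controls on slide 1, the other BAT control with all 4 Adipo-Pgam1 KO BAT arrays and 3 gWAT controls on slide 2, and the other gWAT control with the 4 gWAT arrays labelled Adipo-Pgam1 KO on slide 3. The 8 enzymes were named by rule, as were at most 2 rises and 2 falls per related list and tissue and the 3 most alike genes. Members and lists were chosen with earlier results of these data known. Alternatives covered scaling, background, filters, blocks, the methods' t-test and leaving out arrays. A gene that this rule would name among the NADPH users is not reported here.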

Additional observations from a re-analysis of the deposited data

Results flagged for a closer look

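The genotype difference was not the same in both tissues for 5 enzymes, by the test of the interaction over all 16 arrays. The change in gWAT minus that in BAT was 2.38 for Tkt, 1.84 for G6pdx, 1.43 for Taldo1, 1.42 for H6pd and 1.30 for Pgls on the log2 scale. A single array lay far from the other 3 of its group in 2 of the 32 groups of 4 arrays examined, and chance gives about 1 in 20. Pgls stood at 6.69 in replicate 4 of gWAT labelled Adipo-Pgam1 KO, against 7.17 to 7.20 in the other 3. Rpia stood at 0.88 in replicate 2 of control gWAT, against 0.43 to 0.46 in the other 3.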

How the results depend on the processing

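In BAT, 6 enzymes passed the threshold, but 3 with quantile normalization and 3 with spike-in scaling, and 6 or 7 when single arrays were left out. Taldo1 turned to 0.23 with quantile and 0.033 with spike-in scaling, Rpe to 0.36 with spike-ins and -0.31 to 0.016 without single arrays (0.016 without control replicate 4), and Rpia to -0.29 with Actb and Rplp0. H6pd in BAT kept its direction and side of the threshold in all 23 alternatives. In gWAT, 4 enzymes passed, but 0 with the slide as a fixed block and 2 with the replicate number as a block, and 2 to 6 when single arrays were left out (2 without replicate 1, 2 or 3 labelled Adipo-Pgam1 KO). H6pd turned to 0.17 with spike-ins, and Rpe to 0.085 with median centring, 0.40 with spike-ins, 0.038 with normexp, 0.0063 with the mean of its probes, -0.13 to 0.12 without single arrays (0.12 without control replicate 3 and 0.055 without labelled replicate 4).

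For the interaction, 5 passed, but 8 with Actb and Rplp0 and 3 with the slide as a fixed block, and 5 without any single array. Rpe turned to -0.017 with quantile normalization and lay at -0.053 to 0.30 without single arrays, lowest without BAT control replicate 4. Between the tissues in controls, 4 passed, but 7 with Actb and Rplp0, and 4 or 5 without single arrays. With quantile normalization 4 passed as well, but 3 were higher and 1 lower in BAT, with H6pd in place of Taldo1. Between BAT of Adipo-Pgam1 KO mice and the KO-labelled gWAT arrays 2 passed, but 0 with the slide as a fixed block. The count was 1 with the slide as a random block, 1 by the methods' t-test after adjustment, and 1 or 2 without single arrays. There, with the slide as a fixed block, Tkt turned to 0.29 and Taldo1 to 0.0073. Rpe turned to -0.0099 with spike-ins, -0.073 with Actb and Rplp0 and -0.12 with the mean of its probes. Pgls turned to -0.0076 with Actb and Rplp0 and -0.0067 without both arrays of mice aged 14 weeks. Without gWAT replicate 1, Pgd turned to 0.095 and Rpia to 0.037, within a range of -0.24 to 0.037 for Rpia without single arrays, and Rpia to 0.0055 without both muscle-marked BAT arrays. The settings that leave out pairs of arrays were chosen after seeing the data. The cause of these moves was not tested.

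Over all genes, 2524 passed in gWAT, but 184 with the slide as a fixed block, 1082 with the replicate block, 1136 without a filter, 1380 with median centring, 1614 by the methods' t-test, 4028 with all 16 arrays in the fit, 5078 with spike-ins, and 1078 to 1579 without any one of control replicates 2 and 3 and labelled replicates 1 to 3. The methods' t-test, at an unadjusted p under 0.05, counted 4669. With the slide as a fixed block, 3261 of 7154 passed for the interaction and 1784 of 6687 between Adipo-Pgam1 KO BAT and KO-labelled gWAT. The share of higher calls went from 56.6% to 83.7% with Actb and Rplp0 for the interaction, from 54.6% to 41.8% with spike-ins and 70.9% with Actb and Rplp0 between control tissues, and from 50.5% to 32.5% and 28.5% between Adipo-Pgam1 KO BAT and KO-labelled gWAT.

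Whether equal replicate numbers pair the arrays could not be decided with 4 arrays per group. Deviations of same-numbered arrays correlated at -0.14 to 0.43 between genotypes in gWAT, and those of other numbers at -0.28 to 0.29. Between genotypes in BAT these ranges were 0.00 to 0.22 and -0.25 to 0.14. Between control BAT and gWAT they were -0.07 to 0.22 and -0.28 to 0.20. Between Adipo-Pgam1 KO BAT and KO-labelled gWAT they were -0.19 to 0.29 and -0.15 to 0.17. The same-number and other-number ranges overlapped each time, with the highest value among same numbers. The labels do not say whether same-numbered BAT and gWAT arrays share a mouse. In gWAT the replicate block left Pgd and Tkt past the threshold, with G6pdx at 1.11 (limma adjusted p = 0.0603) and Taldo1 at 0.93 (limma adjusted p = 0.0516), and it changed no other call among the enzymes.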
